A study of Mus musculus with 16 samples.

Results

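Cytochrome P450 enzymes (P450s) are heme proteins that add an oxygen atom to small molecules. Families 1 to 4 in this gene nomenclature mostly act on foreign chemicals and fatty acids, family 26 breaks down retinoic acid, and other families act on sterols, bile acids, steroid hormones and vitamin D. Most sit in the endoplasmic reticulum and receive electrons from the reductase encoded by Por. In the conducting airways, secretory club cells are the main site of P450 expression, and Cyp2f2, the enzyme that makes naphthalene toxic to the mouse lung, is their best known member.

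The genes described here are the protein-coding mouse genes whose symbol is Cyp followed by a family number, a subfamily letter and a member number. Of 49315 gene identifiers in the count table, 99 fitted this rule, and 34 of them had at least 10 counts in at least 2 of the 16 libraries. The rule used no contrast between groups. It leaves out Cyp51, Tbxas1 and Ptgis, P450 genes with other kinds of symbols, none of which passed the test in the HDM responses of female MTECs.

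Primary murine tracheal epithelial cell cultures (MTECs) of male and female mice, WT or labelled KO for LMAN1, were differentiated at an air-liquid interface. They were then left naive or treated overnight with 20 ug/ml house dust mite (HDM) extract, and RNA was sequenced from 2 biological replicates in each of the 8 groups. LMAN1 is a cargo receptor that carries glycoproteins out of the endoplasmic reticulum. The study kept the knockout on a C57BL/6J background by breeding heterozygotes, and WT and KO mice were littermates. All groups shared the culture conditions, in which 3 tracheas were pooled to supply 2 conditions on inserts coated with basement membrane made by 3T3 cells, a mouse fibroblast line. The age of the mice used for these cultures was not given in the sources used here. With 2 cultures a group, p-values measure only the spread between such cultures, and pooling leaves no view of single animals.

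Counts on genes came to between 21860698 and 43442188 per library. Lman1 itself stood at 101 to 144 CPM (counts scaled to library size with TMM factors) in the 8 WT libraries. It stood at 12.8 in both female KO naive libraries and at 14.2 and 63.4 in the male KO naive libraries. The libraries labelled KO and HDM kept 53.9 to 64.8% of the WT mean, so the label KO is used below only as a name. The HDM response of the female KO group also sets libraries with less Lman1 against libraries with more. In the male KO group this holds for the naive library at 14.2 CPM only, the HDM libraries being at 65.0 and 66.0 CPM. No KO HDM library had a level near that of the female KO naive pair, so no result without such libraries could be given. Of the epithelial markers checked, Epcam, Cdh1, Krt8 and Krt18 summed to 2900 to 7469 CPM, and the endothelial markers Pecam1 and Cdh5 to at most 0.444 CPM. The stromal markers differed between replicates of the same group, for example 26.7 and 538 summed CPM in female WT naive MTECs.

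Cyp2f2 was by far the most abundant P450 transcript. To compare genes of different length, CPM was divided by exon length in kilobases, which gives RPKM. The mean RPKM of Cyp2f2 over the 16 libraries was 6490, followed by Cyp2a5 at 233, Cyp4b1 at 71.2 and Cyp1b1 at 26.1. Cyp20a1, Cyp4a12b, Cyp2b10, Cyp39a1 and Cyp2j6 lay between 10.4 and 12.0 RPKM, and the other described members lay at or below 8.38. In the 12 libraries of the naive groups and the male HDM groups, Cyp2f2 alone took 1.29 to 1.89% of all counts on genes and 91.3 to 93.2% of all counts on P450 members.

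**Figure D1:**
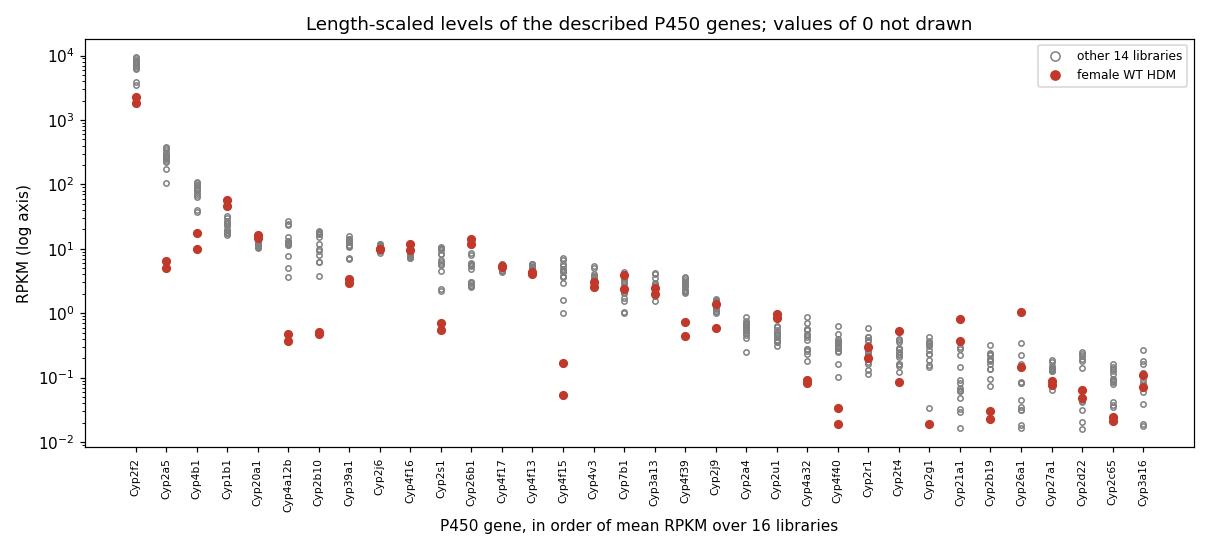
RPKM (log axis) of the 34 described P450 genes in each of the 16 libraries, ordered by their mean. The 2 female WT HDM libraries are filled points and the other 14 are open circles. Values of 0 are not drawn, so Cyp2a4 has no filled point. Cyp2f2 lies above every other member, and in female WT HDM MTECs Cyp2a5, Cyp2b10, Cyp4a12b and Cyp4f15 lie far below their other libraries while Cyp1b1 and Cyp26b1 lie above theirs.

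The remaining 65 members were at or near the limit of detection. Of these, 26 had no count in any library, 29 had a highest count of 1 to 3, and 10 had a highest count of 4 or more, with 11 as the highest. They included the dioxin-inducible Cyp1a1, with at most 3 counts in any library, and Cyp1a2, with none. A count of 0 in a library allows up to 3 counts, and this floor covers counting error only.

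Members of 1 gene cluster can share reads. In GENCODE transcripts, 36.1% of the 50-base windows of Cyp2a4 were also found in Cyp2a5, 31% of those of Cyp2a5 in Cyp2a4, 49.4% of those of Cyp4a12b in Cyp4a12a, 34.8% of those of Cyp4a32 in Cyp4a10 and 24.8% of those of Cyp4f16 in Cyp4f37. The levels of these 5 genes, and of Cyp2c65 and Cyp21a1 with 20.6 and 23.7% of windows shared, are therefore uncertain where counting split reads between copies. Cyp2f2, Cyp1b1, Cyp2s1, Cyp26b1, Cyp39a1 and Cyp3a13 shared no such window with another gene. The strand setting of the counting was not stated. Exons of an antisense gene covered 13.5% of the exon bases of Cyp2f2 and 10.5% of those of Cyp2u1. On the same strand, exons of the protein-coding gene Gm45753 covered 8.22% of the exon bases of Cyp4v3, whose level is uncertain to that extent.

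HDM treatment of female WT MTECs lowered 15 P450 genes, Cyp2f2 and Cyp2a5 among them, and raised 7, Cyp26b1 and Cyp1b1 among them. Of the 34 described members, 32 passed the filter on low counts (Cyp2c65 and Cyp3a16 did not), and 22 of the 32 were called at an adjusted p under 0.05, 7 higher and 15 lower (edgeR's quasi-likelihood test, Benjamini-Hochberg adjustment over 15993 genes). In the same comparison 43.1% of all genes tested were called, 20.6% higher and 22.4% lower. The median log2 fold change was -0.68 over the 32 members and -0.02 over all genes tested. Among the 21 members with a mean of at least 1 CPM, 16 were called, 6 higher and 10 lower, against 47.4% of all genes above that level. Members that passed the filter only through the groups in which they were high had to differ, so the first count is not independent of the filter. Leaving out female WT HDM replicate 2, with 595 summed CPM of stromal markers, gave 19 called members, 4 higher and 15 lower. In bulk RNA, fewer cells of a type and less RNA per cell cannot be told apart.

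Cyp2f2 (chromosome 7, 27119909 to 27133660, plus strand, GRCm38) is transcribed in club cells and oxidises naphthalene. It stood at 16710 and 12610 CPM in female WT naive libraries and at 4645 and 3754 CPM in female WT HDM libraries. The lower naive library was still well above both HDM libraries, and the fall was 1.80 on the log2 scale (log2 fold change -1.80 ± 0.19 SE, n = 2 per group, adjusted p = 2.27e-05, edgeR's quasi-likelihood test). Its share of all counts in the HDM pair was 0.363 and 0.449%. Its RefSeq promoter window, from 250 bases before to 50 bases after the start, is shown because this gene carries most of the P450 signal. None of the motifs searched for below lies in these letters (GRCm38.p6, chr7:27119705-27120004, plus strand).
Cyp2f2: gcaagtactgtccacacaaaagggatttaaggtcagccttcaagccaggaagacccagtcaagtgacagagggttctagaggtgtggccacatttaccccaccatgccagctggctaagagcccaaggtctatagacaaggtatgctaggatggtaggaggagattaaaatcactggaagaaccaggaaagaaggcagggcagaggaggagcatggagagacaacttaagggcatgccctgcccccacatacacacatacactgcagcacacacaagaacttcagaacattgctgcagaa

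The other 6 lowered members of family 2 had larger log2 fold changes than Cyp2f2, and these gaps between genes were not tested. Cyp2a5, a coumarin and nicotine hydroxylase, went from 712.8 and 566.9 CPM to 10.4 and 13.5 CPM (log2 fold change -5.74 ± 0.30, adjusted p = 2.19e-07). Cyp2b10, the classic phenobarbital-inducible P450 of mouse liver, went from 35.4 and 35.5 CPM to 1.08 and 0.995 CPM (-5.08 ± 0.34, adjusted p = 9.44e-07). Cyp2s1, a P450 of surface epithelia, went from 47.5 and 50.8 CPM to 3.54 and 2.75 CPM (-3.96 ± 0.25, adjusted p = 6.5e-07). In each of the 3 genes the replicates of a group lay close together and the groups did not overlap. Cyp2a4 had 74 counts in the 2 naive libraries and 0 in the 2 HDM libraries. This makes it at least 15.5-fold lower against a floor of 3 counts in the 2 HDM libraries together. In female KO MTECs the mean of Cyp2a4 was 1.03 CPM in naive and 0.578 CPM in HDM libraries, beside 546 and 290 CPM for Cyp2a5. In the male groups the means were 0.951 to 1.17 CPM and 467 to 701 CPM. Whether the Cyp2a4 counts were reads of Cyp2a5 was not tested, so its fall may not be a separate change. Cyp2g1, known from the olfactory mucosa, had 34 counts in naive and 1 in HDM libraries, a ratio of 21.3 with a 95% counting interval of 3.58 to 866. Cyp2b19 had 56 and 5 counts, a ratio of 7.02 with an interval of 2.84 to 22.5.

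Cyp2a4 and Cyp2a5 are near copies in the same cluster, and their promoter windows are printed together because the genes share reads. The capitals mark TATAAA, the letters of a TATA box, which 13.6% of the 32851 RefSeq promoter windows hold on either strand. With 1 base of offset, 294 of 299 compared bases were identical (GRCm38.p6, chr7:26306942-26307241 for Cyp2a4 and chr7:26835089-26835388 for Cyp2a5, both plus strand).
Cyp2a4: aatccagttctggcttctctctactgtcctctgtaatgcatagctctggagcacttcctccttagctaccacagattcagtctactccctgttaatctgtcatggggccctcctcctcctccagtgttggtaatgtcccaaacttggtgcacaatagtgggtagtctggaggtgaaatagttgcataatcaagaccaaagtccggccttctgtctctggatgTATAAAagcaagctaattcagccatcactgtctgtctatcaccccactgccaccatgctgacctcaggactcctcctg
Cyp2a5: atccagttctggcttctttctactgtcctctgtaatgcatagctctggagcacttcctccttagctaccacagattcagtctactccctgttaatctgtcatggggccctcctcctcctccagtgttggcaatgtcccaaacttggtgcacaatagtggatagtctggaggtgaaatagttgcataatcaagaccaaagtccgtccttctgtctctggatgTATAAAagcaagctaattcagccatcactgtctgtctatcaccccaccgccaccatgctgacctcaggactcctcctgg

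Family 2 also held members that HDM did not lower. Cyp2u1, a fatty acid hydroxylase, rose from 1.85 and 2.43 CPM to 5.04 and 4.40 CPM in female WT MTECs (log2 fold change 1.13 ± 0.21, adjusted p = 0.00115, edgeR's quasi-likelihood test). Cyp2j6, of a subfamily that makes epoxides of arachidonic acid, stood at 35.8 and 36.7 CPM in naive and at 36.0 and 36.1 CPM in HDM libraries. Across all 16 libraries Cyp2j6 kept between 30.9 and 43.2 CPM. Of the 13 tested members of family 2, 7 fell, 1 rose and 5 did not pass, among them the vitamin D hydroxylase gene Cyp2r1 at 0.242 to 1.24 CPM in all libraries.

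Family 4 consists of fatty acid omega-hydroxylases, with 7 of 10 tested members lower, 1 higher and 2 not past the test. Cyp4b1, a lung-rich enzyme that activates plant furans, went from 206.2 and 164.5 CPM to 39.03 and 22.07 CPM in female WT MTECs (log2 fold change -2.60 ± 0.24, adjusted p = 1.16e-05, edgeR's quasi-likelihood test). Cyp4a12b went from 28.8 and 31.3 CPM to 0.874 and 1.14 CPM (-4.91 ± 0.43, adjusted p = 6.71e-06). Cyp4f15 went from 8.25 and 8.72 CPM to 0.125 and 0.379 CPM (-5.09 ± 0.48, adjusted p = 1.11e-05). In female WT HDM replicate 1 this value lay at the floor of 3 counts, so the size of the change in Cyp4f15 is uncertain. All 3 genes were separated from their naive libraries without overlap. Cyp4f39, whose human counterpart makes the very long omega-hydroxy fatty acids of the skin barrier, fell from 7.74 and 8.47 to 2.08 and 1.28 CPM (-2.26 ± 0.30, adjusted p = 0.000116). Cyp4f16 rose slightly, from 25.9 and 24.9 to 29.2 and 36.3 CPM (0.37 ± 0.11, adjusted p = 0.0167), and Cyp4f13 fell slightly (-0.36 ± 0.09, adjusted p = 0.00955). Cyp4f17 lay between 16.4 and 18.5 CPM in the 4 female WT libraries.

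Other members of families 2 to 4 had low counts or did not pass the test in female WT MTECs. Cyp4f40 had 50 counts in female WT naive and 3 in female WT HDM libraries, a ratio of 10.4 with a 95% counting interval of 3.38 to 52.4, and Cyp4a32 had 56 and 6 counts, a ratio of 5.85 with an interval of 2.53 to 16.6. Both passed the test in this comparison, with adjusted p of 0.000598 and 0.00578 (edgeR's quasi-likelihood test). Cyp2c65, which was not tested, had 16 and 2 counts, and Cyp3a16, also not tested, lay between 0 and 0.464 CPM in the 16 libraries. Cyp4v3, a fatty acid hydroxylase gene, lay between 9.65 and 20.5 CPM and did not pass in female WT MTECs (adjusted p = 0.111). Cyp2j9 lay between 1.99 and 5.56 CPM, Cyp2t4 between 0.142 and 0.874 CPM and Cyp2d22 between 0.063 and 0.967 CPM, and none of the 3 passed there. Replicates of Cyp2d22 stood far apart in male naive MTECs, at 0.166 and 0.909 CPM in WT and at 0.241 and 0.847 CPM in KO libraries, an example chosen after its values were seen.

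Neighbouring genes of families 2 and 4 were also read by cluster in female WT MTECs, and only the Cyp4f cluster held calls in both directions. The cluster on chromosome 7 between 25802475 and 27158668 (GRCm38) held 8 described members of family 2. Of these, 7 fell, among them Cyp2a4 and Cyp2a5, which share reads, while Cyp2t4 did not pass the test. On chromosome 4, Cyp4a12b, Cyp4a32 and Cyp4b1 between 115411624 and 115647723 all fell, and the pair Cyp2j6 and Cyp2j9 did not pass. The 6 described Cyp4f genes on chromosome 17 between 32452723 and 32947402 divided into 4 that fell, 1 that rose and 1 that did not pass. The calls of Cyp4f16, the gene that rose, and of Cyp4f13, which fell, were lost when single libraries were left out. The contrast between clusters therefore rests on an unstable call. Among all genes tested, 22.4% were called lower and 20.6% higher.

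Cyp1b1, the one family 1 member above the limit, is a target of the aryl hydrocarbon receptor AHR that is expressed outside the liver. Its transcript stood at 106.0 and 115.3 CPM in female WT naive and at 268.1 and 338.3 CPM in female WT HDM libraries (log2 fold change 1.45 ± 0.23, adjusted p = 0.000493, edgeR's quasi-likelihood test). The 2 HDM libraries lay above all 14 others, whose range was 97.0 to 190.8 CPM. The other AHR targets checked, Ahrr, Tiparp, Nqo1 and Aldh3a1, did not rise in female WT MTECs, and 1 of the 4, Aldh3a1, fell (-2.69 ± 0.55, adjusted p = 0.00224). Ahr itself fell from 215 and 214 to 155 and 99.6 CPM (-0.75 ± 0.15, adjusted p = 0.00218).

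The promoter windows of Cyp1b1 and of Cyp1a1, which was near 0, are shown because AHR acts on both genes. Capitals mark GCGTG, the core to which AHR with its partner ARNT binds, on either strand, and TATAAA. The core was found in 32.4% of all RefSeq promoter windows and in 8 of 27 windows of 26 described members, so a match is a description and not a binding site (GRCm38.p6, chr17:79715012-79715311, minus strand, for Cyp1b1 and chr9:57697363-57697662, plus strand, for Cyp1a1).
Cyp1b1: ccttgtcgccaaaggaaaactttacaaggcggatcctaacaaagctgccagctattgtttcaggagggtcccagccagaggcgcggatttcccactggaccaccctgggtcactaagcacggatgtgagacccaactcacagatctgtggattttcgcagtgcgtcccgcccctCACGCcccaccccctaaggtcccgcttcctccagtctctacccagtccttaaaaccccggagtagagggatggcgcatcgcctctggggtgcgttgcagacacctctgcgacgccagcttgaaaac
Cyp1a1: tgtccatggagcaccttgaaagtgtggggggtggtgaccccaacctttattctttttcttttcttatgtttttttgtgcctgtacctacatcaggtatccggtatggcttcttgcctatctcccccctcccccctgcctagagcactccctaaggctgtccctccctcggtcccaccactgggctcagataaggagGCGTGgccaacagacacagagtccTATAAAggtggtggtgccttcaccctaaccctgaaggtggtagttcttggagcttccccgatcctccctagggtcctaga
In Cyp1b1 the core starts at -76 from the start site on the opposite strand, and in Cyp1a1 it starts at -54 on the promoter strand with the TATA box at -30.

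Family 26, the retinoic acid hydroxylases, rose in both of its described members. Cyp26b1 stood at 13.5 and 16.3 CPM in female WT naive and at 64.3 and 76.2 CPM in female WT HDM libraries (log2 fold change 2.23 ± 0.36, adjusted p = 0.000486, edgeR's quasi-likelihood test). Cyp26a1, a classic retinoic acid target, was scarce, at 0.0363 and 0.0899 CPM in naive libraries and at 0.291 and 2.04 CPM in HDM libraries (4.00 ± 1.19, adjusted p = 0.0179). The second HDM library carries much of the latter value, and without it the Cyp26a1 change was 2.03. The Cyp26a1 call was lost without this library and also without either naive library. The second HDM library had 595 summed CPM of stromal markers against 48.9 in the first, and the part of stromal cells in the Cyp26a1 value was not tested.

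The Cyp26 promoters are shown because both genes were called in the same direction, although the call of Cyp26a1 was unstable. Capitals mark AGTTCA, a hexamer bound by retinoic acid receptors, on either strand, held by 14.0% of all windows, and TATAAA. A direct repeat of this hexamer with 5 bases between the copies (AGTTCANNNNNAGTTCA, which contains the hexamer) was found in 8 of 32851 windows, 0.0244%, and the Cyp26a1 window held it at -32 on the opposite strand. The Cyp26b1 window held no such hexamer. TGTTTAC, the core of the forkhead factors that include FOXA, was found in 3.65% of all windows and in 1 of the 27 member windows (GRCm38.p6, chr19:37697558-37697857, plus strand, for Cyp26a1 and chr6:84593761-84594060, minus strand, for Cyp26b1).
Cyp26a1: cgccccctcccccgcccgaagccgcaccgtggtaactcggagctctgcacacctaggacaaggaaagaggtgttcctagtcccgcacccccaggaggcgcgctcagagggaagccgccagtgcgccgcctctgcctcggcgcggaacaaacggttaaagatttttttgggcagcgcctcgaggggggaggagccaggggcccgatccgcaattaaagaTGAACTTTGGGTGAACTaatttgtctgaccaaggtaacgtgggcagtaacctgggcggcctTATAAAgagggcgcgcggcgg
Cyp26b1: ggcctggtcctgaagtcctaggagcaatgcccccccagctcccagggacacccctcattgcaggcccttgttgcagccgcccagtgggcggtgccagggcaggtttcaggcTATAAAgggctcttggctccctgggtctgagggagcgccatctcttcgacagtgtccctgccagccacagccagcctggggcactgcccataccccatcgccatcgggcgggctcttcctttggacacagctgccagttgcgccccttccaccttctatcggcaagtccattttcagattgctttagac

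Genes that make and handle retinoids moved in both directions in female WT MTECs. Of 10 listed, 3 rose and 3 fell, where 20.6% of all genes tested were called higher and 22.4% lower. Aldh1a1, which makes retinoic acid from retinal, fell by 4.96 on the log2 scale (± 0.14, adjusted p = 5e-09, edgeR's quasi-likelihood test), and its relative Aldh1a7 fell by 5.06 (± 0.22, adjusted p = 6.93e-08). Stra6, the receptor for retinol-binding protein, rose by 2.80 (± 0.52, adjusted p = 0.00115), and Dhrs3, a retinal reductase, rose by 0.65 (± 0.11, adjusted p = 0.000716). In female KO MTECs 3 rose and 3 fell as well, where 4.63% of all genes were called higher and 5.77% lower.

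Among the sterol and steroid P450 genes, Cyp39a1 and Cyp7b1, both oxysterol hydroxylases, moved in opposite directions in female WT MTECs. Cyp39a1 went from 38.3 and 34.7 CPM to 10.4 and 8.95 CPM (log2 fold change -1.92 ± 0.15, adjusted p = 2.53e-06, edgeR's quasi-likelihood test). Cyp7b1 went from 3.38 and 2.29 CPM to 8.49 and 5.07 CPM (1.27 ± 0.37, adjusted p = 0.0171), and it lost the call without the second naive library (adjusted p = 0.123) or the first HDM library (adjusted p = 0.144). Cyp27a1, the sterol hydroxylase of bile acid synthesis, did not exceed 0.403 CPM in any library. Cyp21a1, the steroid hydroxylase best known from the adrenal, stood at 0.145 and 0.472 CPM in naive and 0.791 and 1.75 CPM in HDM libraries (adjusted p = 0.0517). Cyp20a1, an orphan P450 without a settled substrate, went from 26.8 and 27.3 to 33.1 and 37.7 CPM (0.39 ± 0.11, adjusted p = 0.0168). That call was lost without any of the 2 naive libraries or the second HDM library, with adjusted p of 0.0863, 0.0644 and 0.137. Of the 22 calls, 17 were kept whichever of the 4 libraries was left out, and the others were Cyp20a1, Cyp4f16, Cyp4f13, Cyp7b1 and Cyp26a1.

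**Figure D2:**
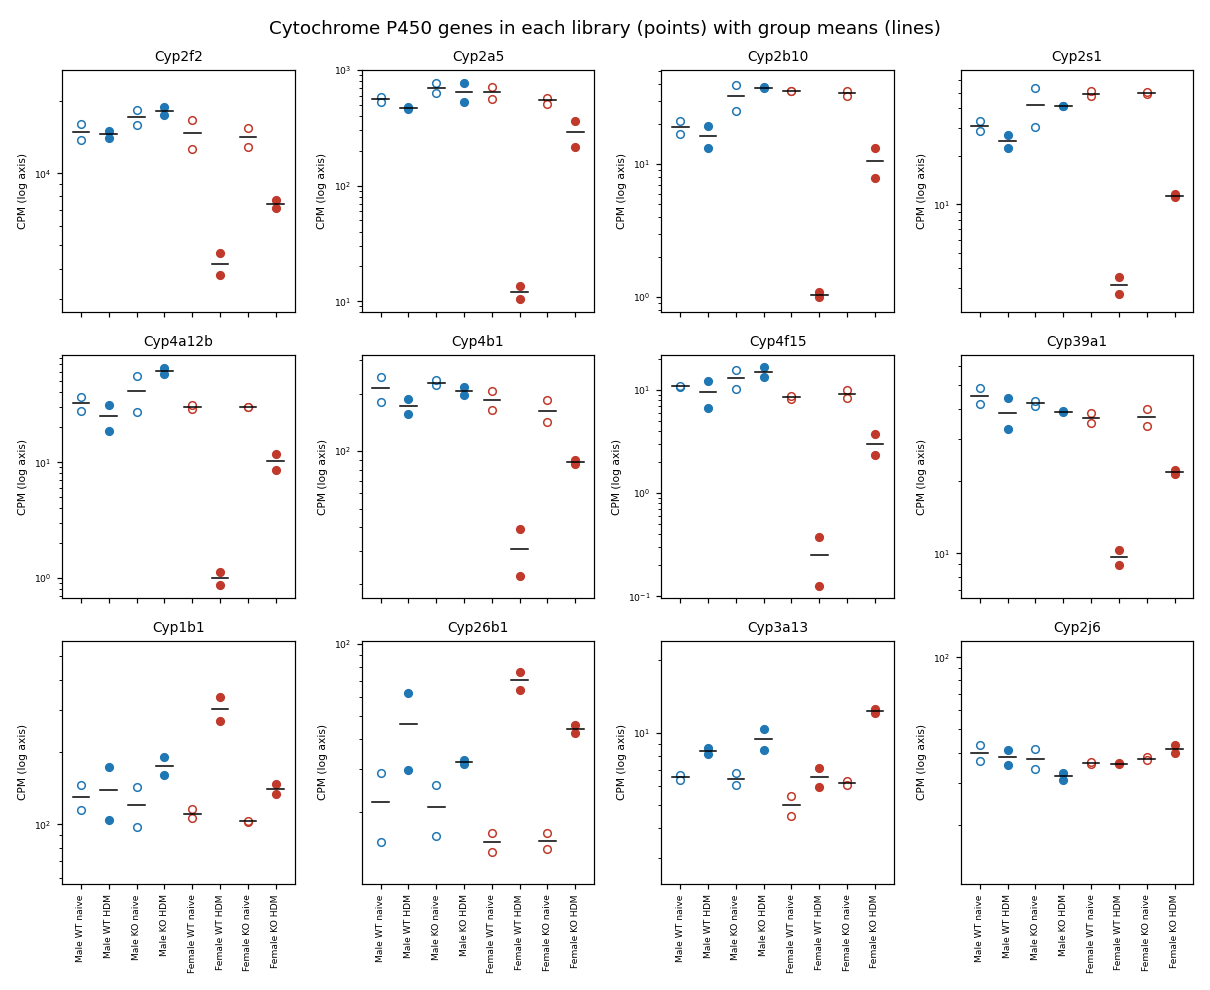
CPM (log axis) of 12 P450 genes in each library by group, blue for male and red for female, open for naive and filled for HDM, with black lines at the means of the 2 libraries. Female WT HDM libraries lie lowest for Cyp2f2, Cyp2a5, Cyp2b10, Cyp2s1, Cyp4a12b, Cyp4b1, Cyp4f15 and Cyp39a1 and highest for Cyp1b1 and Cyp26b1, while Cyp2j6 stays between 30.9 and 43.2 CPM.

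Markers of club and goblet cells were lower in the same libraries. All 6 club cell markers listed (Scgb1a1, Scgb3a1, Scgb3a2, Bpifa1, Reg3g and Lypd2) fell in female WT MTECs, from 3713 to 4704 summed CPM in naive to 56.5 and 83.3 in HDM libraries. Scgb1a1, the defining club cell secretoglobin, was low in every library, at 0.0474 to 3.75 CPM, while other club markers were abundant. Whether the counting lost reads of Scgb1a1 was not tested, so its level is uncertain. All 5 goblet markers fell, from sums of 140 to 168 to 3.83 and 4.03 CPM. Of the 6 basal markers 5 fell, of the 8 ciliated markers 3 fell, and all 4 pan-epithelial markers rose. Of the squamous markers 1 rose and 1 fell, of the stromal markers 2 of 7 rose, and of the 4 immune markers tested 1 fell. These counts stand beside 43.1% of all genes called in this comparison, 20.6% higher and 22.4% lower. The part of a changed mix of cells in the P450 values was not tested.

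Of the 9 listed genes that supply P450 enzymes with electrons and heme, 6 fell, 1 rose and 2 did not pass in female WT MTECs. There 22.4% of all genes tested were called lower and 20.6% higher. Por stood at 2710 and 2030 CPM in naive and at 1200 and 1220 CPM in HDM libraries (log2 fold change -0.97 ± 0.19, adjusted p = 0.00196, edgeR's quasi-likelihood test). Alas1, the rate-limiting enzyme of heme synthesis, went from 369 and 288 CPM to 72.4 and 51.8 CPM (-2.40 ± 0.19, adjusted p = 3.6e-06), and Cyb5a, the microsomal cytochrome b5, from 369 and 338 to 142 and 132 CPM (-1.37 ± 0.09, adjusted p = 1.34e-06). Cyb5r3 was the gene that rose, by 0.29 on the log2 scale.

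Of 20 receptors and factors that control P450 genes, 17 were tested, 7 fell and 2 rose in female WT MTECs. Among all genes tested, 43.1% were called in this comparison, 20.6% higher and 22.4% lower. Ppara, the fatty acid receptor that drives Cyp4a genes in liver, fell by 2.42 (± 0.50, adjusted p = 0.0023, edgeR's quasi-likelihood test), and Cebpa fell by 1.25 (± 0.20, adjusted p = 0.000392). Foxa2, a forkhead factor of the airway epithelium, rose by 1.05 (± 0.26, adjusted p = 0.00698), with 5.01 and 5.37 CPM in naive and 14.1 and 7.48 CPM in HDM libraries. Rarb, a retinoic acid receptor, rose by 0.46 (± 0.10, adjusted p = 0.0031). Nr1i3, which encodes the receptor CAR that drives Cyp2b10 in liver, stayed between 0.63 and 1.46 CPM in the 16 libraries.

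**Figure D3:**
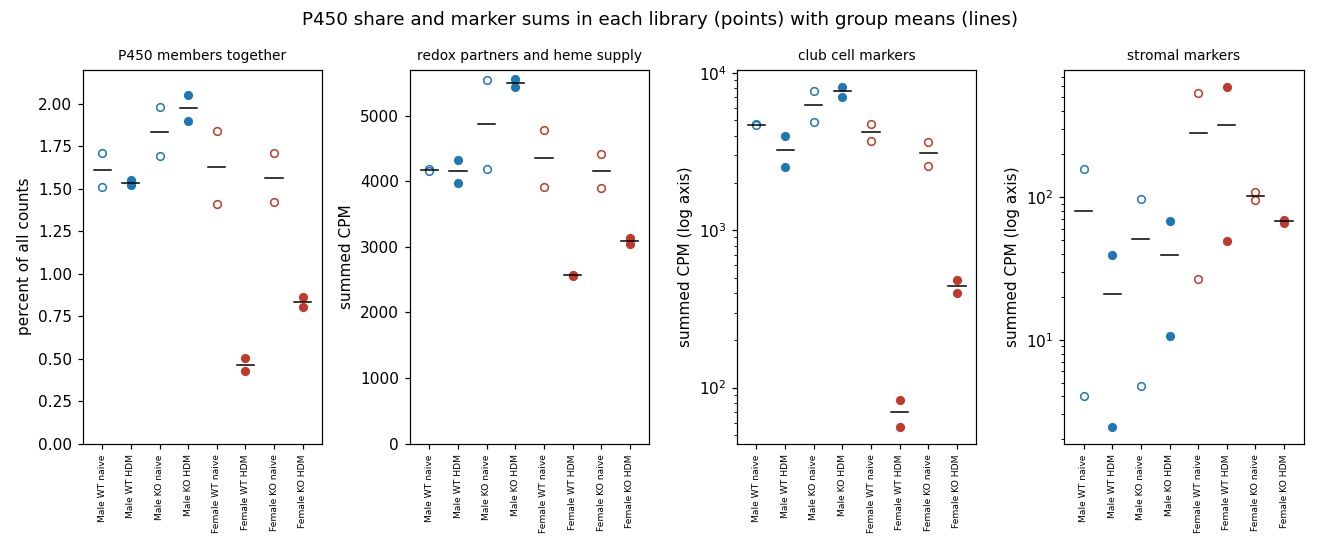
Share of all counts on genes taken by the P450 members, and summed CPM of redox and heme genes, club cell markers and stromal markers, in each library by group, blue for male and red for female, open for naive and filled for HDM, with lines at group means. P450 members took 0.425 and 0.505% of counts in female WT HDM and 0.802 and 0.862% in female KO HDM libraries, against 1.41 to 2.05% in the other libraries, and the club sum was lowest in the same 2 groups.

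HDM treatment of female KO MTECs lowered 9 P450 genes, Cyp2f2 and Cyp2a5 among them, and raised Cyp26b1 and Cyp3a13. Of the 32 members tested, 11 were called, 2 higher and 9 lower (edgeR's quasi-likelihood test), in a comparison in which 10.4% of all genes were called, 4.63% higher and 5.77% lower. The median log2 fold change was -0.30 over the members. The count fell to 3 without female KO naive replicate 1 and to 3 without female KO HDM replicate 2, and it was 8 without either of the other 2 libraries. The 3 calls kept in every case were Cyp2s1, Cyp2b10 and Cyp3a13.

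Cyp2s1 went from 49.3 and 50.5 CPM in female KO naive to 11.6 and 11.1 CPM in female KO HDM libraries (log2 fold change -2.14 ± 0.21, adjusted p = 0.000317, edgeR's quasi-likelihood test). Cyp2b10 went from 35.7 and 32.5 CPM to 13.2 and 7.91 CPM (-1.69 ± 0.26, adjusted p = 0.00252). Cyp3a13, a family 3 enzyme related to the main drug-oxidising P450s, rose from 6.30 and 6.04 to 12.1 and 12.6 CPM (1.00 ± 0.15, adjusted p = 0.00241). The groups of each gene were apart, and Cyp3a13 had its highest values of all 16 libraries in the female KO HDM pair. In female WT MTECs the same gene was at 4.50 and 5.46 CPM in naive and 7.16 and 5.92 CPM in HDM libraries (adjusted p = 0.0596), and the difference between the 2 responses did not pass (0.61 ± 0.21, adjusted p = 0.0871).

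The other 8 calls in female KO MTECs were each lost without at least 1 of the 4 libraries. Cyp2f2 went from 15440 and 12850 CPM to 7770 and 7145 CPM (log2 fold change -0.92 ± 0.18, adjusted p = 0.00899, edgeR's quasi-likelihood test), with an adjusted p of 0.101 without female KO HDM replicate 2. Cyp2a5 went from 578 and 513 CPM to 365 and 216 CPM (-0.91 ± 0.24, adjusted p = 0.033, and 0.245 without the same library). Cyp26b1 rose from 14.0 and 16.3 to 42.4 and 45.9 CPM (1.54 ± 0.35, adjusted p = 0.0185), with adjusted p of 0.0582 to 0.151 when 1 library was left out. Cyp4a12b, Cyp4f15, Cyp4b1, Cyp39a1 and Cyp2g1 made up the rest, with log2 fold changes between -2.79 and -0.76. The value of -2.79 was that of Cyp2g1, whose HDM libraries lay at or under the floor. It had 28 counts in naive and 3 in HDM libraries, a ratio of 7.3 with a 95% counting interval of 2.26 to 37.5. Cyp1b1 was at 102 and 103 CPM in naive and at 133 and 147 CPM in HDM libraries and did not pass (adjusted p = 0.25). In the same libraries 4 of 6 club markers fell, the club sum being 2574 and 3626 CPM in naive and 398 and 483 in HDM libraries, and 4 of 5 goblet markers fell. Of the redox and heme genes 4 of 9 fell, while 1 of the 17 tested receptors and factors rose. Among all genes tested, 5.77% were called lower and 4.63% higher in this comparison.

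**Figure D4:**
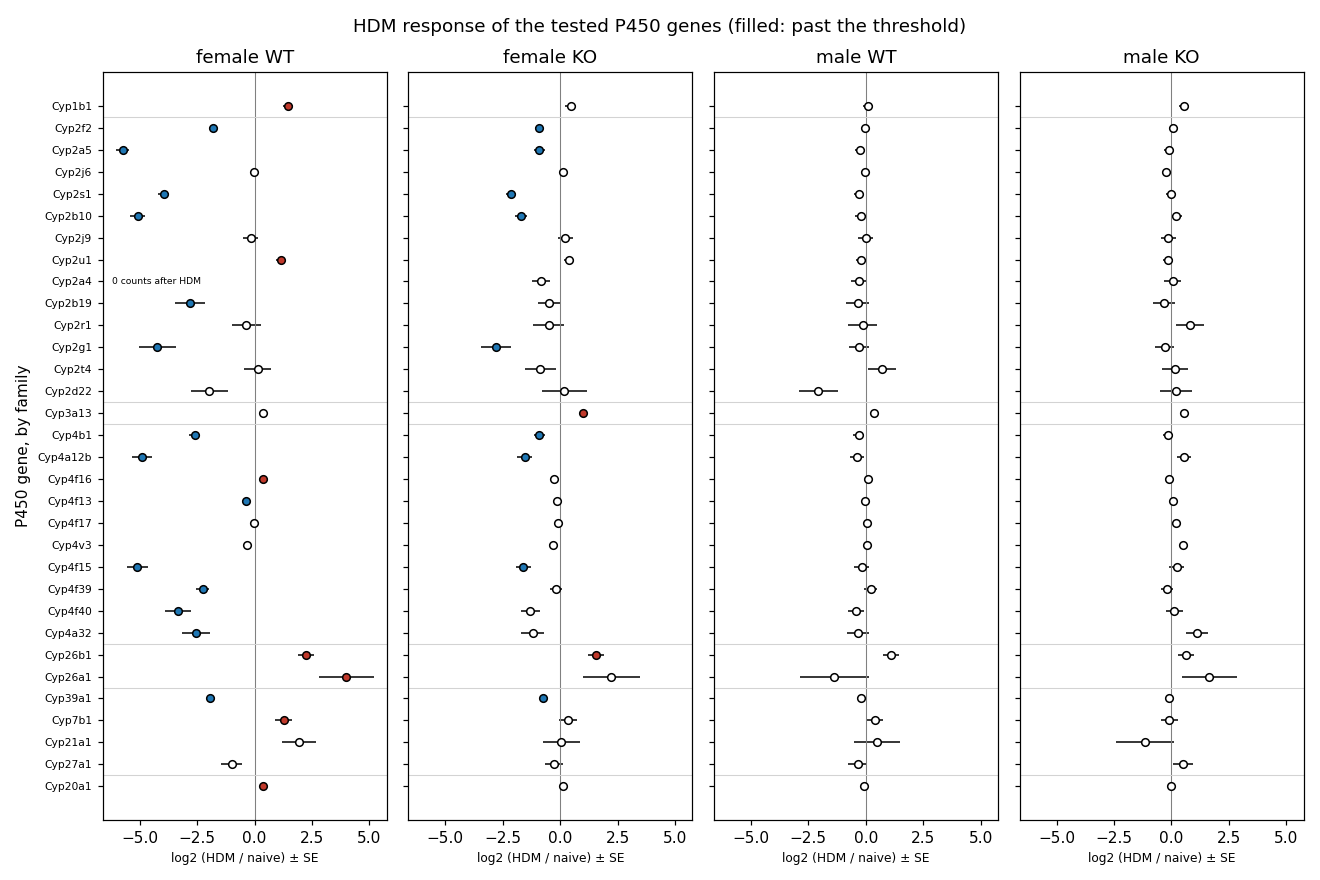
Log2 fold change of HDM over naive with its standard error for the 32 tested P450 genes, grouped by family, in female WT, female KO, male WT and male KO MTECs. Filled points passed the test (red higher, blue lower). The calls number 22 in female WT, 11 in female KO and 0 in each male panel. The female WT call of Cyp2a4 has no point and is marked in words because it had 0 counts after HDM.

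No P450 gene passed the test for HDM in male MTECs. In male WT MTECs 0 of 32 members were called by edgeR's quasi-likelihood test, as were 0% of all genes, with 3 members and 4.16% of all genes at an unadjusted p under 0.05. In male KO MTECs 0 members were called against a background of 0%, with 5 members and 5.36% of all genes at an unadjusted p under 0.05. DESeq2 called 0 members in either comparison, and 2 and 1 of all genes. Cyp2f2 stood at 16090 and 13700 CPM in male WT naive and 14990 and 14030 CPM in male WT HDM libraries. Cyp2a5 stood at 585 and 527 CPM and at 459 and 475 CPM in the same groups. Cyp26b1 was at 28.8 and 14.9 CPM in male WT naive and at 62.4 and 29.8 CPM in male WT HDM libraries, groups that did not overlap but nearly met, and the gene did not pass (log2 fold change 1.08 ± 0.35, adjusted p = 0.936). The male KO libraries were at 15940 and 18360 CPM of Cyp2f2 in naive and at 17450 and 18920 CPM in HDM cultures.

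The test of the difference between the female and male responses gave 14 of 32 members in WT MTECs, 12 of them with the more negative female response and 2, Cyp1b1 and Cyp2u1, with the more positive one (edgeR's quasi-likelihood test). In this comparison 24.2% of all genes were called, 11.3% in the positive and 12.8% in the negative direction. The median over the members was -0.46 on the log2 scale. Cyp2a5 differed by -5.49 ± 0.37 (adjusted p = 4.36e-06), Cyp4f15 by -4.91 ± 0.58 (adjusted p = 0.000188), Cyp2b10 by -4.87 ± 0.42 (adjusted p = 2.23e-05) and Cyp2f2 by -1.77 ± 0.26 (adjusted p = 0.000701). The calls for Cyp2g1 and Cyp4f40 were lost without female WT HDM replicate 2. The size for Cyp4f15 is uncertain, because female WT HDM replicate 1 lay at the floor.

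In KO MTECs 4 of 32 members differed between the female and male responses, all in the negative direction, where 3.56% of all genes were called, 1.79% positive and 1.77% negative. They were Cyp2s1 (-2.12 ± 0.29, adjusted p = 0.00599, edgeR's quasi-likelihood test), Cyp2b10 (-1.91 ± 0.35, adjusted p = 0.0161), Cyp4a12b (-2.10 ± 0.44, adjusted p = 0.0266) and Cyp4v3 (-0.85 ± 0.20, adjusted p = 0.0448). The count was 1 or 2 without any one of 7 of the 8 libraries and 7 without male KO naive replicate 2, the male KO naive library with the higher Lman1. Cyp2s1 alone kept its call in every case.

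The test of the difference between the KO and WT responses of female MTECs gave 11 of 32 members, 10 with a less negative or more positive response in KO and 1, Cyp4f16, with the opposite (edgeR's quasi-likelihood test). Here 11.2% of all genes were called, 6.16% positive and 5.08% negative. Cyp2a5 differed most clearly, by 4.83 ± 0.36 (adjusted p = 3.29e-05), from a fall of 5.74 in WT and of 0.91 in KO MTECs. Cyp2b10 differed by 3.39 ± 0.42 (adjusted p = 0.00099), Cyp4a12b by 3.36 ± 0.54 (adjusted p = 0.00412) and Cyp39a1 by 1.16 ± 0.20 (adjusted p = 0.00545). For Cyp2f2 the difference was 0.88 ± 0.26 (adjusted p = 0.0481), and it did not pass without any 1 of 6 of the 8 libraries, with adjusted p up to 0.182. Cyp4f16 lost its call without any 1 of 7 of the 8 libraries (adjusted p 0.0569 to 0.0973), and Cyp4b1 without female KO naive replicate 2 (adjusted p = 0.0525). Cyp26b1 and Cyp1b1 did not pass, with adjusted p of 0.389 and 0.0702. The 3 tests of response differences share libraries with each other and with the HDM responses.

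Naive cultures showed no P450 gene that passed between the sexes. In WT naive MTECs 0 of 32 members were called by edgeR's quasi-likelihood test, where 0.1% of all genes were called, with 8 members and 12.3% of all genes at an unadjusted p under 0.05, and DESeq2 called 1 member and 204 of all genes. In KO naive MTECs 0 members were called against 0.188% of all genes, with 3 members and 9.91% of all genes at an unadjusted p under 0.05, and DESeq2 called 0 members and 216 of all genes. Cyp2b10 was at 20.98 and 16.72 CPM in male and 35.4 and 35.5 CPM in female WT naive libraries, without overlap, and did not pass (log2 male over female -0.91 ± 0.25, adjusted p = 0.207). Cyp7b1 was at 6.26 and 7.00 CPM in male and 3.38 and 2.29 CPM in female WT naive libraries, also without overlap, and did not pass (1.24 ± 0.37, adjusted p = 0.241).

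After HDM, male WT MTECs had more of 15 P450 transcripts than female WT MTECs and less of 6, so that 21 of 32 members were called (edgeR's quasi-likelihood test), against 41.6% of all genes, 21.3% higher and 20.3% lower in males. Cyp2a5 was at 459 and 475 CPM in male and at 10.4 and 13.5 CPM in female WT HDM libraries (log2 male over female 5.29 ± 0.29, adjusted p = 3.14e-07). Cyp39a1, at 32.9 and 44.1 CPM in males, differed by 1.99 ± 0.15 (adjusted p = 2.09e-06), and Cyp2s1, at 27.2 and 22.6 CPM in males, by 2.98 ± 0.24 (adjusted p = 4.23e-06). The members lower in males were Cyp1b1, Cyp2u1, Cyp4f16, Cyp20a1, Cyp21a1 and Cyp26a1. Of these, Cyp4f16 and Cyp21a1 lost the call without male or female WT HDM replicate 2, Cyp20a1 without female WT HDM replicate 2, and Cyp26a1 without any one of 3 of the 4 libraries. The log2 difference of Cyp26a1 was -4.11 and went to -2.15 (adjusted p = 0.306) without female WT HDM replicate 2. Of the 21 calls 14 were kept whichever library was left out, and a fit of the compared libraries alone gave 14. Among the members higher in males, the calls of Cyp4a32, Cyp2b19 and Cyp4v3 were each lost without at least 1 library. For Cyp2a4, which shares reads with Cyp2a5, the males had 61 counts against 0 in the 2 female libraries. That is at least 14.3-fold more, with a floor of 3 counts in those 2 female libraries together. All 6 club markers and all 5 goblet markers were higher in the same male libraries, as were 7 of the 9 redox and heme genes.

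In KO HDM MTECs 13 of 32 members were called between the sexes (edgeR's quasi-likelihood test), 12 higher and 1 lower in males, where 25.3% of all genes were called, 12.9% higher and 12.4% lower. Cyp2s1 was at 41.3 and 41.4 CPM in male and 11.6 and 11.1 CPM in female libraries (log2 male over female 1.87 ± 0.21, adjusted p = 0.000184). Cyp4a12b was at 57.4 and 64.5 CPM in male and 11.9 and 8.63 CPM in female libraries (2.57 ± 0.33, adjusted p = 0.000308). Cyp2j6 was the member lower in males (-0.38 ± 0.11, adjusted p = 0.023), a call lost without any one of the 4 libraries. Among the 12 higher calls, those of Cyp4a32 and Cyp4f40 were also lost without any one of the 4. The call of Cyp2a5 was lost without male KO HDM replicate 2.

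Between the genotypes, naive cultures and male HDM cultures had no called member by edgeR's quasi-likelihood test. The counts were 0 of 32 in female naive, male naive and male HDM MTECs, against 0% of all genes in each, with 1, 1 and 8 members at an unadjusted p under 0.05, beside 1.27, 5.42 and 18.1% of all genes. DESeq2 called 0, 0 and 3 members in these comparisons, and 1, 1 and 562 of all genes. In female HDM MTECs 16 of 32 members were called, 13 higher and 3 lower in KO, where 29.2% of all genes were called, 14.9% higher and 14.3% lower. The members lower in KO were Cyp1b1 (log2 KO over WT -1.11 ± 0.23, adjusted p = 0.00518), Cyp4f16 and Cyp20a1. Cyp2a5, at 365 and 216 CPM in KO and 10.4 and 13.5 CPM in WT, differed by 4.60 ± 0.29 (adjusted p = 3.37e-06), and Cyp2b10, at 13.2 and 7.91 CPM in KO, by 3.33 ± 0.34 (adjusted p = 9e-05). Cyp39a1 differed by 1.17 ± 0.15 (adjusted p = 0.000276). All 6 club markers and 5 of 6 basal markers were higher in the female KO than in the female WT HDM libraries. This comparison shares its libraries with the female HDM responses and with the sex difference after HDM, and the calls of Cyp1b1, Cyp2f2 and Cyp4f16, among others, were lost without female WT HDM replicate 2.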

How the data were processed

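RNA of 16 MTEC cultures was sequenced. The deposited table, made by the authors, holds raw read counts for each Ensembl gene, as integers that were not normalized. Their processing notes name Trimmomatic version 0.36, STAR version 2.5.2b, featureCounts of Subread version 1.5.2, DESeq2 and GRCm38, with no order, annotation release or strand setting. Columns were matched to samples by sex, genotype, treatment and replicate, an unnumbered column being replicate 1 where its partner ended in 2. All columns were used.

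Symbols, positions and exon lengths came from GENCODE M21 (GRCm38), in which 49056 identifiers matched and 259 did not (0.0106% of counts). Genes were filtered with filterByExpr by group, scaled with TMM and fitted in edgeR version 4.0.16 (R version 4.3.3) as 1 quasi-likelihood model of the 8 group means, with 15993 genes tested, 8 residual degrees of freedom and a common biological coefficient of variation of 0.142. Calls were made at an adjusted p under 0.05 (Benjamini-Hochberg) in each of 15 comparisons, two-sided. A standard error is the log2 fold change divided by the square root of F. Replicates of no group agreed within sampling noise (chi-square per gene 4.62 to 45.6). Counts of 3 or fewer in a library were taken as the floor, and counting intervals are exact at 95%. Where the 2 libraries of a group had 0 counts, the bound used 3 counts in both together.

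Members and gene lists were chosen with earlier results of these data known. The text names members by a rule: the 10 with the largest change among called members of at least 1 CPM in each female HDM response, the 6 with the highest RPKM, those with the smallest p in the other comparisons, and the most abundant member of each family. Others were named after their values were seen. Alternatives were DESeq2 version 1.42.0, no filter, upper-quartile scaling, scaling to library size only, a replicate block, a fit of the compared libraries alone, a minimum log2 fold change of 1 in size, and leaving out each library. The tests were run on simulated data first. Promoter windows and motifs came from RefSeq (GRCm38.p6), with windows for 26 of the 34 members. Shared 50-base windows came from the longest coding transcript of each member. Tables and plots used Python version 3.11.15, numpy version 2.4.6, pandas version 2.3.3, scipy version 1.17.1 and matplotlib version 3.10.9.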

Additional observations from a re-analysis of the deposited data

Results flagged for a closer look

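The 3 tests of a difference between 2 HDM responses each called P450 members (edgeR's quasi-likelihood test, adjusted by Benjamini-Hochberg). Each value below is a difference of log2 fold changes. Between female and male WT MTECs 14 members differed. The female response was the more negative in Cyp2a5 (-5.49), Cyp4f15 (-4.91), Cyp2b10 (-4.87), Cyp4a12b (-4.54), Cyp2g1 (-3.92), Cyp2s1 (-3.65), Cyp4f40 (-2.90), Cyp4f39 (-2.47), Cyp4b1 (-2.28), Cyp2f2 (-1.77) and Cyp39a1 (-1.69). Cyp2a4, at 0 counts in female WT HDM libraries, passed with an adjusted p of 0.000711, and it shares reads with Cyp2a5. The sizes for Cyp4f15, Cyp2g1 and Cyp4f40 are uncertain, because female WT HDM libraries lay at or near the floor. The female response was the more positive in Cyp1b1 (1.36) and Cyp2u1 (1.34).

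Between female and male KO MTECs 4 members differed, Cyp2s1 (-2.12), Cyp4a12b (-2.10), Cyp2b10 (-1.91) and Cyp4v3 (-0.85). The male KO naive libraries differed in Lman1 itself, at 14.2 and 63.4 CPM.

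Between KO and WT female MTECs 11 members differed. The size given for Cyp4f15 is uncertain, because female WT HDM replicate 1 lay at the floor. The KO response was the less negative in Cyp2a5 (4.83), Cyp4f15 (3.49), Cyp2b10 (3.39), Cyp4a12b (3.36), Cyp4f39 (2.07), Cyp2s1 (1.82), Cyp4b1 (1.70), Cyp39a1 (1.16) and Cyp2f2 (0.88), and Cyp2a4 passed with an adjusted p of 0.00449. Cyp4f16 differed in the other direction (-0.64), a call lost without any one of 7 of the 8 libraries, and the call of Cyp2f2 was lost without any one of 6.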

How the results depend on the processing

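The comparisons gave 112 calls of a member in all, of which 74 were kept whichever library was left out and 38 were lost without at least 1 library. Over all alternatives these calls had 1343 values, of which 1192 were called, 151 were not called and 0 reversed direction. Of the 151, 112 came from leaving out a library and 39 from other alternatives, 20 of them from requiring a log2 fold change of 1 in size. In the female KO HDM response the count of called members was 11, 7 when a log2 fold change of 1 in size was also required, and 3 to 8 when 1 library was left out. With no filter on low counts the counts that had been 0 became 1 in the male WT and 3 in the male KO HDM response, 4 and 6 in the sex differences of WT and KO naive MTECs, and 1, 1 and 9 between genotypes in female naive, male naive and male HDM MTECs. DESeq2 called 1 member in the sex difference of WT naive MTECs and 3 between genotypes in male HDM MTECs. For the difference of HDM responses by sex in KO MTECs, 4 members became 7 by DESeq2, 11 with no filter, 7 with only the compared libraries and 1 to 7 when 1 library was left out. The causes of these shifts were not tested. Leaving out 1 library gave 18 to 22 members in the female WT HDM response, 15 to 19 and 9 to 10 in the sex differences of WT and KO HDM MTECs, 11 to 16 between genotypes in female HDM MTECs, 12 to 18 in the response difference by sex in WT and 8 to 11 in that by genotype. A lone library left in a group was assumed to vary like those of the other groups.

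Replicate numbers do not pair the cultures by the labels. Because 3 tracheas were pooled to supply 2 conditions, a naive and an HDM culture may have come from the same pool. Which cultures shared a pool is not known, and the main fit took all 16 as independent. Replicate differences of the compared groups correlated across genes at between -0.164 and 0.483, and with 2 pairs this decides nothing. With the replicate number as a block the counts were 23 in the female WT and 12 in the female KO HDM response, 21 and 12 in the sex differences of WT and KO HDM MTECs, 16 between genotypes in female HDM MTECs, and 16, 6 and 12 in the 3 response differences, and the zero counts stayed 0. Crossing the numbers in the male KO HDM response and the KO naive sex difference, chosen after seeing the data because their correlations were -0.144 and -0.164, also gave 0. Depth limits the members below 1 CPM most, and the 65 members near 0 could not be compared.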
